A study of Homo sapiens with 12 samples.

Results

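The genes described here are 10 MAPK feedback and early response genes, DUSP4, DUSP5, DUSP6, SPRY2, SPRY4, SPRED1, ETV4, ETV5, EGR1 and FOSL1, which were chosen by symbol as a transcriptional readout of ERK signalling. All 10 were listed in the tables of this series, of 16491 genes listed for HCC70 and 18217 for MDA-MB468 with XY018 and ATV. For MDA-MB468 with GSK805 there were 55744, after 1 entry was kept per name. The RNA came from HCC70 and MDA-MB468 cells, established human lines of triple-negative breast cancer (TNBC), each grown with serum and treated for 24 h, with 1 library per condition and 12 libraries in all. In HCC70 the conditions were vehicle, XY018 (an antagonist of the nuclear receptor RORγ) at 1.25 μM and at 2.5 μM, 1.25 μM ATV (atorvastatin, a statin), and the lower XY018 dose combined with ATV. The same 5 conditions were set up in MDA-MB468, and a further pair of MDA-MB468 cultures had vehicle or 2.5 μM of another RORγ antagonist, GSK805. The sources differ on the medium of MDA-MB468: the sample labels give RPMI with insulin, and the study's methods give DMEM without mention of insulin. HCC70 was in RPMI by both. Each line stands for a single tumour.

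ERK is the last kinase of the RAS-RAF-MEK cascade that growth factor receptors such as EGFR switch on, and it acts within minutes on transcription factors of the ETS family and on the serum response factor SRF. Genes that answer early, such as EGR1 and then FOSL1, encode transcription factors themselves. Other targets shut the signal off again: DUSP4, DUSP5 and DUSP6 encode phosphatases that remove the activating phosphates from ERK, and SPRY2, SPRY4 and SPRED1 encode inhibitors that act upstream of or at RAF. ETV4 and ETV5 encode ETS factors whose level follows FGF and ERK activity, so the mRNA of these genes is widely used to read the pathway without measuring the kinase. Phosphorylated ERK was not measured in these libraries.

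The promoter of EGR1 is shown because EGR1 had the widest range of ratios over the treatments in HCC70. The 250 bases before its RefSeq start (GRCh38.p14, chromosome 5, plus strand, chr5:138465229-138465478) hold a pair of CArG boxes, the sites that SRF binds, and 1 EGR site (GCGNGGGCG). The capitals mark these matches, 5′ to 3′.

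EGR1 promoter: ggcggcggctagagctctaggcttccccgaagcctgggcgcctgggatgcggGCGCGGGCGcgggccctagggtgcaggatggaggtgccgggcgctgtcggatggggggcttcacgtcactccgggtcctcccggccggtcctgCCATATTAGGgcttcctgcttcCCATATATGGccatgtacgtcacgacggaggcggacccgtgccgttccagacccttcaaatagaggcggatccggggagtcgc

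The CArG boxes lie 105 to 96 and 83 to 74 bases before the start. Of 35116 promoters searched on both strands over the same length, 1.16% held a CArG box, and of the 5 members with a promoter entry (EGR1, SPRY4, DUSP6, SPRY2 and SPRED1) EGR1 did. The EGR site, 198 to 190 bases before the start of EGR1, was in 8.41% of all promoters and also in that of SPRY4. It was in a promoter of SPRY2 too, but not in the other entries of that gene. The 5 members had 7 promoter entries, the extra ones being of SPRY2. The promoter of SPRY4 (GRCh38.p14, chromosome 5, minus strand, chr5:142324248-142324497) is shown because SPRY4 was lower with XY018 in MDA-MB468 and its promoter also held the EGR site, and its capitals mark the EGR site, which lies on the opposite strand.

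SPRY4 promoter: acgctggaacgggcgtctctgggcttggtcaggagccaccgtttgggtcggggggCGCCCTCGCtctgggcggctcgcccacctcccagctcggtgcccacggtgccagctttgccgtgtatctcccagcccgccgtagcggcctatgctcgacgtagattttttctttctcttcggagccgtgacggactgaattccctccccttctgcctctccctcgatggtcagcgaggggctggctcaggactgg

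The other motifs searched, an ETS site (CCGGAAG), an AP-1 site (TGANTCA) and a cAMP response element (TGACGTCA), were in 8.52%, 6.57% and 1.65% of all promoters and in none of the windows of these 5 members. A match says only that the letters are there. No match says only that these exact letters are missing from the 250 bases, and shorter or variant sites were not searched.

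Expression was read as FPKM, a fragment count corrected for transcript length and library depth, the unit that the quantification software gives, since the tables name none. Treated values that follow a vehicle value are in the order 1.25 μM XY018, 2.5 μM XY018, ATV and both, unless named. For each gene 0.1 was added to its FPKM and the log2 ratio was taken between a treated library and the vehicle listed beside it in the same table. Genes that reached 1 FPKM in either library of a pair were counted as higher or lower when they differed by at least 1.5-fold. With 1 library per condition no test was possible and no p-value is given. Counting intervals (95%, exact Clopper-Pearson) come from fragments estimated from FPKM, transcript length and depth. They cover counting error only, not the spread between cultures. The depth was estimated at 9080000 to 9880000 fragments per HCC70 library, 17900000 to 20000000 for the MDA-MB468 libraries with XY018, ATV or their vehicle, and 8350000 and 8660000 in the GSK805 pair. In such bulk RNA, fewer cells that express a gene and less of its RNA per cell cannot be told apart.

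With XY018 most of these genes lay on opposite sides of vehicle in the 2 lines. At 2.5 μM all 10 members lay above vehicle in HCC70 (45% of all genes did), 5 of them by at least 1.5-fold. The counting intervals of SPRY2 and SPRED1 there included 0, and those of the other 8 lay above it. In MDA-MB468, 8 of the 10 lay below vehicle (49.7% of all genes did), 7 of them by at least 1.5-fold. Of all 11721 genes compared in HCC70, 2.62% were higher by that much, and of the 11920 compared in MDA-MB468, 14.5% were lower. SPRY4, one of the 5 in HCC70, passed the filter only through the treated library. With the filter set on vehicle alone, a choice made after seeing the data, 4 of 9 members were higher in HCC70, against 1.93% of all genes, with a median log2 ratio of 0.58. The median log2 ratio of the 10 members was 0.61 in HCC70, where that of all genes was −0.02, and −0.72 in MDA-MB468, where that of all genes was 0.0020. No member was lower by 1.5-fold in HCC70 (3.26% of all genes were), and none was higher in MDA-MB468 at that dose (14.1% were). With 10 members, a count of 0 is near each of these shares.

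**Figure D1:**
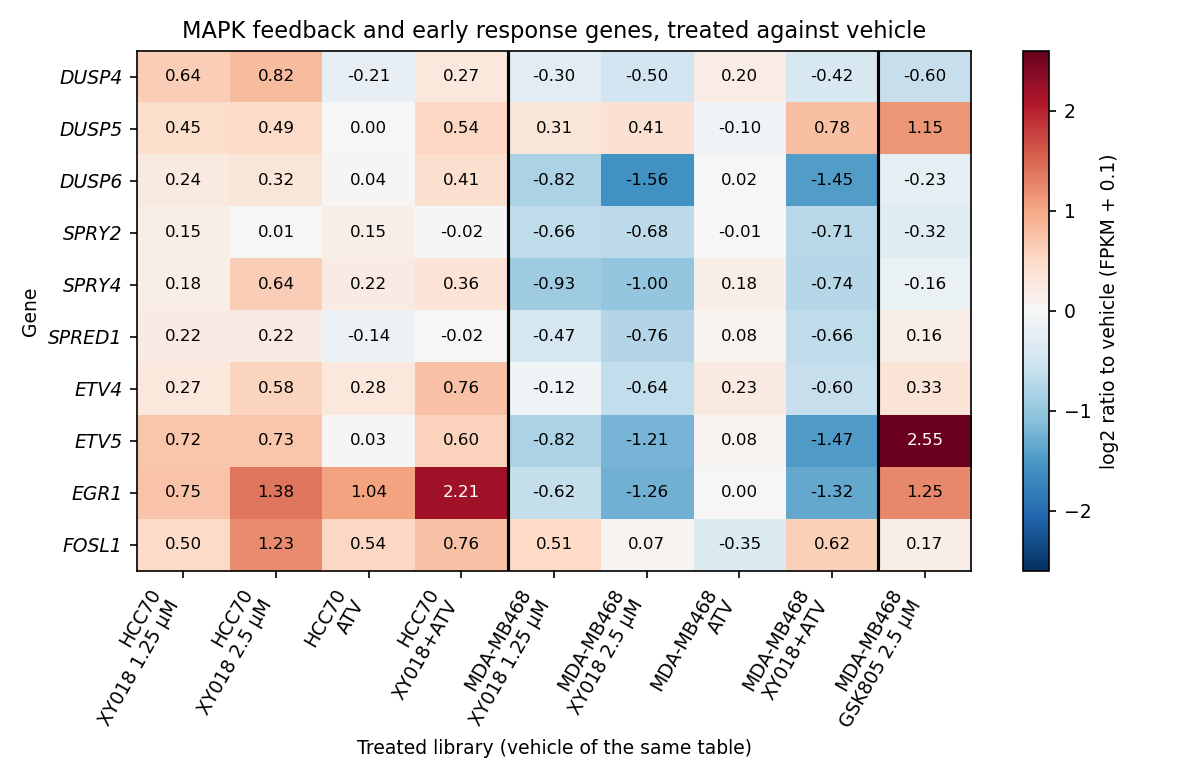
Log2 ratio of FPKM to vehicle (0.1 added) for the 10 genes (rows) in the 9 treated libraries (columns), with red above and blue below vehicle and the value printed in each cell. The 3 HCC70 columns with XY018 are mostly red and the 3 MDA-MB468 columns with XY018 mostly blue, DUSP5 and FOSL1 excepted, and the MDA-MB468 column with ATV alone lies between −0.35 and 0.23.

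Over the 3 libraries with XY018 in each line (1.25 μM, 2.5 μM and with ATV), DUSP4, DUSP6, ETV4, ETV5 and EGR1 lay above vehicle in all 3 in HCC70 and below vehicle in all 3 in MDA-MB468. These are 5 of the 9 members that passed the filter in all 6 comparisons, and the same pattern was seen in 8.67% of the 10748 genes that did. SPRY4 moved in the same way, but at 1.25 μM in HCC70 it was under 1 FPKM in both libraries and is not among the 9. DUSP5 and FOSL1 lay above vehicle in all 6 libraries, as did 12% of the genes compared. In HCC70 alone, 7 of 9 members lay above vehicle in all 3 libraries (25% of all genes did). In MDA-MB468 alone, 8 of 10 lay below vehicle in all 3 (41.8% of all genes) and 2 above it in all 3 (also 41.8%). SPRY2 and SPRED1 were among these 8 and lay close to vehicle in HCC70. The 3 libraries of a line share 1 vehicle, so their ratios are not independent of each other.

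**Figure D2:**
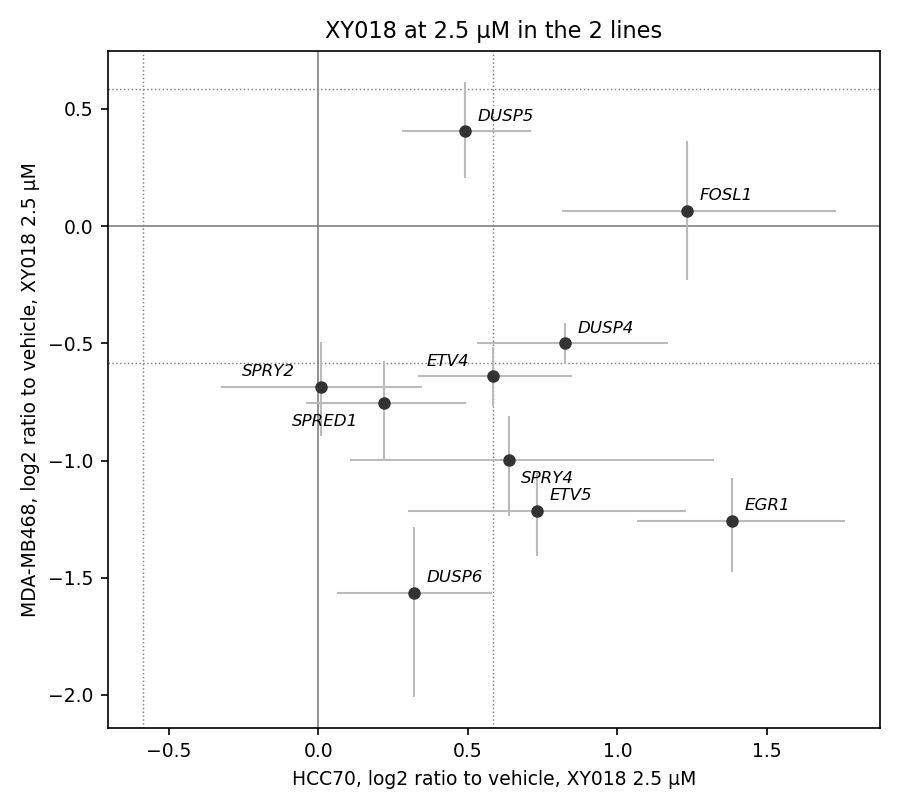
Each point is 1 gene, with its log2 ratio to vehicle at 2.5 μM XY018 in HCC70 on the horizontal axis and in MDA-MB468 on the vertical axis, bars for the 95% counting intervals and dotted lines at 1.5-fold. EGR1, ETV5, SPRY4, DUSP6, DUSP4 and ETV4 lie to the right of 0 and below it, whereas DUSP5 and FOSL1 lie above 0 on both axes.

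EGR1 (Entrez gene 1958, GRCh37 chromosome 5 from 137801168 to 137804992) encodes the zinc-finger factor that is the standard early response gene of growth factor signalling. In HCC70 it stood at 3.24 FPKM in vehicle, 5.51 with 1.25 μM XY018, 8.61 with 2.5 μM XY018, 6.75 with ATV and 15.4 with both. In MDA-MB468 it stood at 12.5 FPKM in vehicle, 8.12 and 5.17 with 1.25 and 2.5 μM XY018, 12.5 with ATV and 4.94 with both. Every treated HCC70 library was thus above its vehicle, while in MDA-MB468 the 3 libraries with XY018 were below vehicle and the library with ATV alone was level with it. At 2.5 μM the log2 ratio was 1.38 in HCC70 (counting interval 1.07 to 1.76), which 0.316% of all genes reached, and −1.26 in MDA-MB468 (−1.48 to −1.08), which 3.09% of genes reached. The vehicle library of HCC70 held an estimated 96 fragments of EGR1, and that of MDA-MB468 held 758.

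FOSL1 (chromosome 11 from 65659520 to 65668044) encodes the AP-1 subunit FRA1, whose gene is induced by ERK more slowly than EGR1. It was at 3.66 FPKM in HCC70 vehicle and at 5.21, 8.74, 5.37 and 6.27 FPKM with 1.25 μM XY018, 2.5 μM XY018, ATV and both. In MDA-MB468 it was at 6.04 FPKM in vehicle and at 8.65, 6.33, 4.72 and 9.31 FPKM in the same order. The highest HCC70 library was that with 2.5 μM XY018, with a log2 ratio of 1.23 (0.82 to 1.73). In MDA-MB468 that dose left FOSL1 near vehicle, at 0.07 (−0.23 to 0.36), while 1.25 μM gave 0.51 (0.24 to 0.78), so the order of the doses differed between the lines.

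DUSP6 (Entrez gene 1848, chromosome 12 from 89741012 to 89746278) encodes the cytoplasmic phosphatase that is specific for ERK, and its mRNA is one of the most used readouts of the pathway. In MDA-MB468 it went from 4.07 FPKM in vehicle to 2.27 and 1.31 with 1.25 and 2.5 μM XY018, 4.12 with ATV and 1.43 with both. At 2.5 μM its log2 ratio of −1.56 (−2.01 to −1.28) was the lowest of the members, and 1.66% of all genes were as low. HCC70 vehicle held 6.45 FPKM, and the treated libraries 7.65, 8.07, 6.62 and 8.62 FPKM with 1.25 μM XY018, 2.5 μM XY018, ATV and both. These HCC70 libraries lay above vehicle by less than 1.5-fold, with a log2 ratio of 0.32 at 2.5 μM (0.06 to 0.58). In the annotation an unnamed gene on the opposite strand shares 1105 exonic bases with DUSP6, and the library kit is not stated to keep strand, so reads of the 2 could not be told apart.

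DUSP4 (Entrez gene 1846) and DUSP5 (Entrez gene 1847, chromosome 10 from 112257665 to 112271291) encode nuclear phosphatases, of which DUSP5 acts on ERK alone. DUSP4 was at 2.42 FPKM in HCC70 vehicle and at 3.82, 4.36, 2.08 and 2.93 FPKM with 1.25 μM XY018, 2.5 μM XY018, ATV and both. In MDA-MB468 it was at 25.0 FPKM in vehicle and at 20.3, 17.7, 28.8 and 18.6 FPKM in the same order. Its log2 ratio at 2.5 μM was 0.82 in HCC70 (0.53 to 1.17). In MDA-MB468 it was −0.50 (−0.59 to −0.41), short of 1.5-fold. In MDA-MB468 DUSP5 was the phosphatase that did not follow the other pair, while in HCC70 it lay above vehicle with XY018 as they did. It went from 12.9 FPKM in HCC70 vehicle to 17.7, 18.2, 12.9 and 18.8 FPKM, and from 7.5 FPKM in MDA-MB468 vehicle to 9.33, 9.97, 7.01 and 13.0 FPKM. The 3 libraries with XY018 were above vehicle in each line, and the library with both compounds in MDA-MB468 passed 1.5-fold, with a log2 ratio of 0.78 (0.60 to 0.98).

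The Sprouty and SPRED inhibitors were lower in MDA-MB468 and changed less in HCC70. SPRY4 (Entrez gene 81848, chromosome 5 from 141689992 to 141706020) went from 6.15 FPKM in MDA-MB468 vehicle to 3.18, 3.03, 6.96 and 3.65 FPKM with 1.25 μM XY018, 2.5 μM XY018, ATV and both, a log2 ratio of −0.998 at 2.5 μM (−1.24 to −0.81). In HCC70 it was at 0.82 FPKM in vehicle and at 0.94, 1.33, 0.97 and 1.08 FPKM, from an estimated 38 fragments in vehicle. It passed the filter at 2.5 μM only through the treated library, so its log2 ratio of 0.64 (0.10 to 1.32) there belongs to a barely expressed gene. SPRY2 (chromosome 13 from 80910111 to 80915261) was at 13.0 FPKM in MDA-MB468 vehicle and at 8.16, 8.03, 12.9 and 7.87 FPKM with the treatments, and its ratio hardly differed between the doses. In HCC70 SPRY2 stayed between 6.73 and 7.59 FPKM over all 5 libraries, with a log2 ratio of 0.0083 at 2.5 μM (−0.32 to 0.35). SPRED1 (chromosome 15 from 38545037 to 38649450), which restrains RAS through neurofibromin, was at 3.85 FPKM in MDA-MB468 vehicle and at 2.76, 2.24, 4.08 and 2.40 FPKM. In HCC70 it was between 2.79 and 3.62 FPKM, and its counting interval at 2.5 μM included 0 (−0.04 to 0.49).

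ETV4 and ETV5, the ETS factors, lay below vehicle in the 3 MDA-MB468 libraries with XY018 and above it in the 3 of HCC70. ETV5 (Entrez gene 2119, chromosome 3 from 185764103 to 185828107) went from 12.1 FPKM in MDA-MB468 vehicle to 6.77 and 5.14 with 1.25 and 2.5 μM XY018, 12.7 with ATV and 4.29 with both. HCC70 vehicle held 1.63 FPKM and the treated libraries 2.74, 2.77, 1.67 and 2.53 FPKM. The log2 ratio at 2.5 μM was −1.21 in MDA-MB468 (−1.41 to −1.06) and 0.73 in HCC70 (0.30 to 1.23), where the vehicle held an estimated 63 fragments. ETV4 (chromosome 17 from 41605212 to 41656988), was at 32.0 FPKM in the MDA-MB468 vehicle beside XY018 and ATV, the highest FPKM of the members in that library, and at 29.4, 20.5, 37.5 and 21.1 FPKM with the treatments. In HCC70 it was at 9.36 FPKM in vehicle and at 11.3, 14.1, 11.4 and 15.9 FPKM. At 2.5 μM its log2 ratio was −0.64 in MDA-MB468 (−0.77 to −0.52) and 0.58 in HCC70 (0.33 to 0.85), just short of 1.5-fold. ETV4 shares 68 exonic bases with DHX8 on the opposite strand, and ETV5 shares 164 with DGKG on the same strand, and in the GSK805 pair DGKG was at 2.30 FPKM with vehicle and 0.218 FPKM with GSK805.

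**Figure D3:**
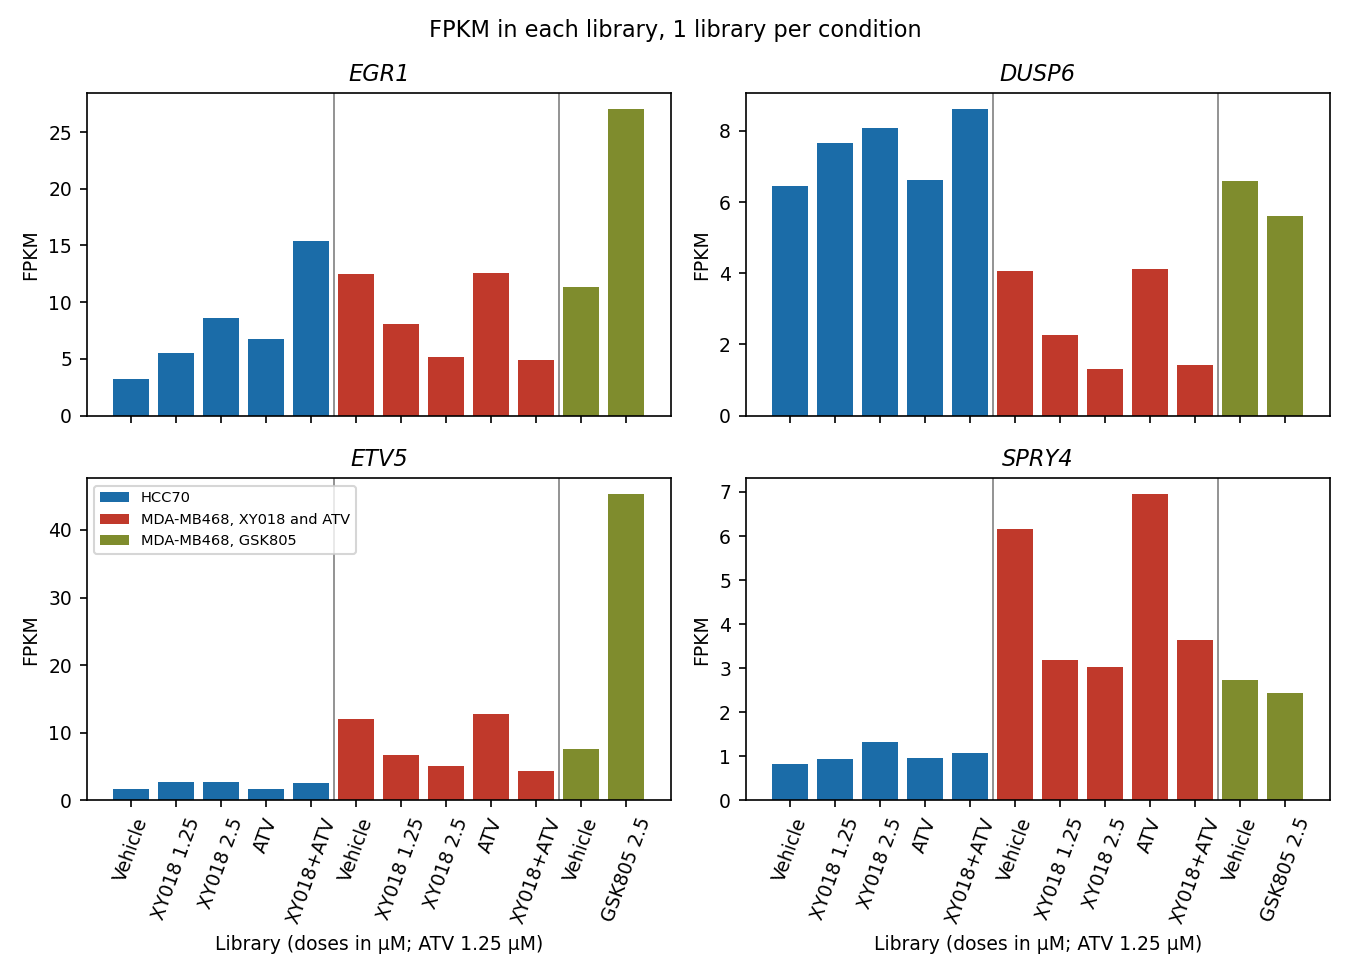
FPKM of EGR1, DUSP6, ETV5 and SPRY4 (one panel each, vertical axes from 0) in the 12 libraries, coloured by table, with 1 bar per library and no error bars because no condition has a replicate. In the red MDA-MB468 bars, vehicle and ATV stand near each other and the 3 libraries with XY018 lower, and in the green pair ETV5 and EGR1 are higher with GSK805.

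The dose of XY018 separated some members and not others. In MDA-MB468, 9 of the 10 members were lower at 2.5 than at 1.25 μM, where 52.6% of all genes were, and the median log2 ratio was −0.34 for the 10 members and −0.012 for all genes. DUSP6 and EGR1 differed by at least 1.5-fold between the doses, by −0.75 and −0.64, where 1.73% of all genes were lower by that much and 1.03% higher. SPRY2 and SPRY4 differed by −0.02 and −0.07, with intervals of −0.24 to 0.20 and −0.32 to 0.17. The difference between the doses was thus within counting error for SPRY2 and SPRY4. The intervals of 7 of the 10 members lay below 0, among them that of SPRED1, at −0.29 (−0.53 to −0.08). In HCC70, 8 members were higher at 2.5 than at 1.25 μM, where 47.2% of all genes were, and SPRY4 among the 8 passed the filter only through the library with 2.5 μM. EGR1 and FOSL1 passed 1.5-fold, by 0.63 and 0.74, where 1.17% of all genes did and 1.36% were lower. The counting intervals of ETV4, EGR1 and FOSL1 lay above 0. At 1.25 μM itself, DUSP4, ETV5 and EGR1 were higher in HCC70 (1.93% of all genes were, and 2.64% lower) and DUSP6, SPRY2, SPRY4, ETV5 and EGR1 lower in MDA-MB468 (8.37% were, and 9.73% higher).

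ATV alone left most of these genes, like most genes compared, within 1.5-fold of vehicle. In MDA-MB468 no member passed 1.5-fold with ATV (0.803% of genes were lower and 1.37% higher), and the log2 ratios ran from −0.35 for FOSL1 to 0.23 for ETV4. The counting intervals of DUSP4, SPRY4 and ETV4 lay above 0 and that of FOSL1 below it. In HCC70 EGR1 was higher with ATV, by a log2 ratio of 1.04 (0.70 to 1.42), where 2.22% of all genes were higher and 1.32% lower, and no other member passed 1.5-fold. FOSL1 came nearest, at 0.54 (0.07 to 1.06). With so few members, counts of 0 of 10 in MDA-MB468 and 1 of 9 in HCC70 are close to the shares of all genes.

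With ATV added to 1.25 μM XY018, EGR1 lay further from vehicle than with XY018 alone in each line, on the same side. In HCC70 EGR1 was 1.46 higher on the log2 scale with both compounds than with XY018 (1.22 to 1.75) and 1.17 higher than with ATV (0.95 to 1.43), where 3.75% and 2.73% of all genes were higher by 1.5-fold and 1.96% and 2.54% lower. No other member passed 1.5-fold in either contrast, and DUSP4 was lower with both compounds than with XY018, by −0.37 (−0.69 to −0.07). In MDA-MB468 EGR1, ETV5 and DUSP6 were lower with both compounds than with XY018, by −0.71, −0.65 and −0.63, where 1.76% of all genes were lower and 2.1% higher, and SPRY4 stood at 0.19 (−0.03 to 0.42). Against ATV alone, 8 members were lower with both compounds (11.1% of all genes) and DUSP5 and FOSL1 higher (11.7%). Against vehicle, both compounds gave 7 lower members in MDA-MB468 (12.2% of all genes) and 2 higher ones, DUSP5 and FOSL1 (13.1%). With 10 members, 2 higher ones are near the share of all genes, against ATV as against vehicle. In HCC70 both compounds gave 4 higher members than vehicle, ETV4, ETV5, EGR1 and FOSL1, where 4.38% of genes were higher and 2.93% lower.

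With GSK805, ETV5, EGR1, ETV4 and SPRED1 lay above vehicle, whereas 2.5 μM XY018 in the same line put them below it. The other members lay on the same side of vehicle with each compound. Of the 10 members, DUSP4 was lower (16.6% of 19951 genes were) and DUSP5, ETV5 and EGR1 were higher (17.6% were). With 10 members these counts are near those shares. The median log2 ratio was 0.17. ETV5 went from 7.65 to 45.4 FPKM, a log2 ratio of 2.55 (2.37 to 2.77), and EGR1 from 11.3 to 27.0 FPKM, 1.25 (1.05 to 1.46), where XY018 gave −1.21 and −1.26. DUSP5 went from 6.62 to 14.8 FPKM and DUSP4 from 17.7 to 11.7 FPKM, in the directions seen with XY018. DUSP6 was at 6.60 and 5.60 FPKM, SPRY4 at 2.74 and 2.44, SPRY2 at 8.11 and 6.48, SPRED1 at 7.66 and 8.60, ETV4 at 17.2 and 21.6, and FOSL1 at 6.00 and 6.76 FPKM. The counting intervals of DUSP6, SPRY2, SPRY4, SPRED1 and FOSL1 included 0. The experiments with XY018 and GSK805 had cultures, annotation and normalization of their own, so these ratios stand side by side and the difference between the compounds was not tested. The 2 MDA-MB468 vehicle libraries themselves differed by −1.14 for SPRY4 to 0.97 for SPRED1 on the log2 scale. Against the vehicle of the XY018 and ATV experiment, ETV4 with GSK805 stood at −0.56 and DUSP6 at 0.45, each on the other side. SPRED1, ETV5 and EGR1 stayed above that vehicle.

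**Figure D4:**
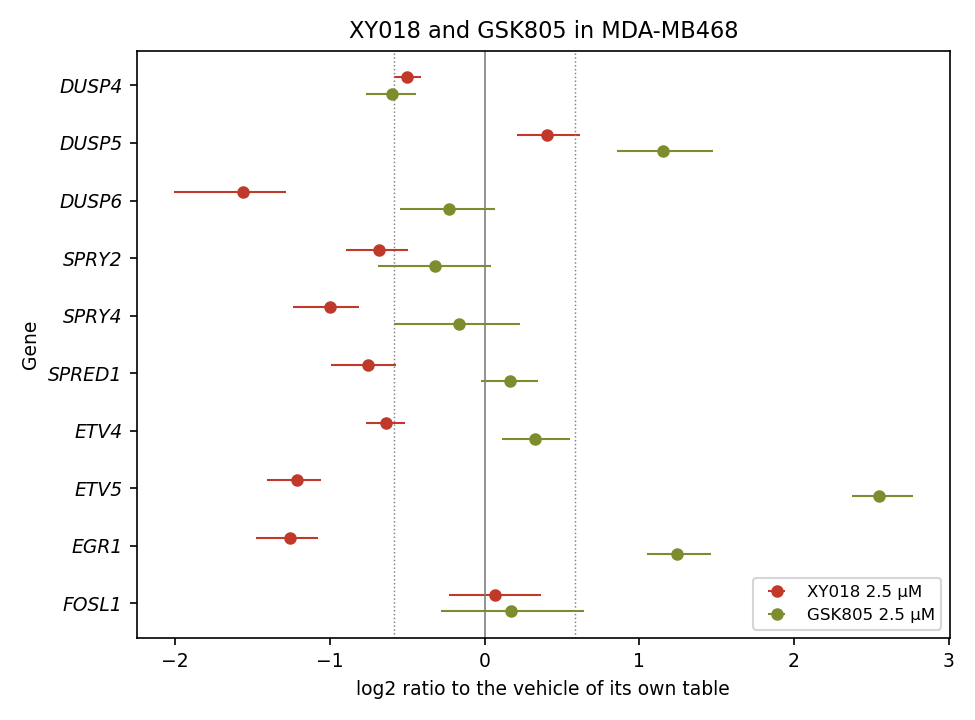
Log2 ratio to the vehicle of its own table for the 10 genes in MDA-MB468 with XY018 (red) and GSK805 (green), both at 2.5 μM, with 95% counting intervals as bars and dotted lines at 1.5-fold. ETV5 and EGR1 lie on opposite sides of 0 with the 2 compounds, and DUSP4 lies below and DUSP5 above 0 with both.

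Across the 9 treated libraries, DUSP6 (Pearson r = 0.97 with the median of the other members), SPRY4 (0.93), EGR1 (0.93), ETV4 (0.93) and SPRED1 (0.92) followed the rest most closely, and DUSP5 (−0.03) and FOSL1 (0.35) least. Among 2568 genes outside the set that were at 5 FPKM or above in every vehicle and past 1.5-fold in at least one comparison, MAN1A1, CCDC71L, SLC38A2, ZNF281 and SRD5A3 had the ratios most like the members' median, with r from 0.98 to 0.99. The 9 points share 3 vehicle libraries, so these values describe the libraries only.

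Other genes of the pathway went in both directions in MDA-MB468, as genes in general did. The counts of feedback genes below, and that of lower immediate early genes, are near the shares of all genes. Genes named in this paragraph from counts of 5 or fewer were picked after their values were seen. Of 20 other ERK feedback genes, all compared at 2.5 μM XY018, 5 were lower (DUSP2, SPRY1, SPRY3, ERRFI1 and IER3) and 4 higher (DUSP1, DUSP8, DUSP9 and DUSP10), where 14.5% and 14.1% of all genes were, with a median log2 ratio of −0.19. ERRFI1, the inhibitor that binds EGFR, went from 53.9 to 20.8 FPKM and SPRY1 from 13.7 to 7.0 FPKM, whereas DUSP1, a phosphatase for p38 and JNK as well as ERK, went from 3.47 to 9.77 FPKM, a log2 ratio of 1.47. Of 19 other immediate early genes, 16 were compared and 6 were higher (FOSB, FOSL2, JUN, JUND, ATF3 and ZFP36), with ATF3 going from 7.61 to 46.6 FPKM, and MYC and CCND1 were lower. CCND1, the cyclin that ERK drives, went from 73.3 to 16.5 FPKM. EGR1 was thus lower in a library in which 6 other immediate early genes were higher.

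In HCC70 at the same dose, where 2.62% of all genes were higher and 3.26% lower, none of the 17 feedback genes compared passed 1.5-fold, and of 15 other immediate early genes FOS and NR4A1 were higher. A count of 0 of 17 is near those shares. FOS went from 9.82 to 17.8 FPKM, a log2 ratio of 0.85. Among the feedback genes at 5 FPKM or above PHLDA1 had the largest ratio, 0.51. The medians of these lists were 0.22 and 0.28. With GSK805 6 of 16 immediate early genes were higher (17.6% of all genes were), among them FOS, which went from 9.74 to 25.9 FPKM.

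Few genes of the cascade itself passed 1.5-fold. Of 26 genes from receptor adaptors to ERK and its substrates, 1 was higher (MKNK2, an ERK-activated kinase, from 49.8 to 102 FPKM) and 1 lower (ETV1, from 5.38 to 2.12 FPKM) at 2.5 μM XY018 in MDA-MB468, where 14.1% and 14.5% of all genes were. In HCC70 none of 25 passed 1.5-fold, which is near the 2.62% and 3.26% of all genes that did. EGFR was at 944 FPKM in MDA-MB468 vehicle and 638 with 2.5 μM XY018, a log2 ratio of −0.57, and at 48.0 and 48.4 FPKM in HCC70.

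All 8 epithelial markers examined were at 27.1 FPKM or above in every library. Of the receptors whose low level defines TNBC, ESR1 was at or under 0.67 FPKM in the XY018 and ATV tables and at 1.77 and 5.67 FPKM in the GSK805 pair, and PGR was listed at 0 in MDA-MB468, whereas ERBB2 was at 25.3 to 57.7 FPKM. The 6 markers of other cell types summed to 184 FPKM in HCC70 vehicle, 187 with ATV and 330 to 431 with XY018, and to 25.3, 23.3 and 18.5 to 19.8 FPKM in MDA-MB468. With GSK805 the sum was 69.0 FPKM against 104 in vehicle, over 5 of the 6 markers, since PECAM1 was not listed there. CD14 made up most of the sum in HCC70, from 170 FPKM in vehicle to 419 with 2.5 μM XY018, and in MDA-MB468 it went from 17.9 to 7.33 FPKM while COL1A1 went from 4.96 to 8.21. LYZ, another myeloid marker, went from 8.35 to 6.32 FPKM in HCC70 and from 1.65 to 2.03 FPKM in MDA-MB468. PTPRC, which marks all leukocytes, was at or under 1.06 FPKM and COL3A1 at or under 0.067. The part of other cells in the results was not tested. In MDA-MB468 the 10 highest genes took 6.72% and 6.84% of the summed FPKM in vehicle and ATV and 9.28% to 10.6% with XY018, in the libraries in which most members were lower. They took 46.5% and 50.1% in the GSK805 pair, and the median ratio of all genes stayed between −0.024 and 0.011 over the 9 comparisons. The part of this shift in composition was not tested.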

How the data were processed

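RNA from 12 cultures was sequenced by the authors on an Illumina instrument after TruSeq RNA library preparation. Reads were mapped to GRCh37/hg19 with BWA and Bowtie and genes quantified with Cufflinks (versions not given in the sources used here). The values the authors deposited, in 3 tables, were taken as FPKM, the unit Cufflinks gives. Read counts are not part of the tables. Their headers name no unit.

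The members and lists were chosen with earlier results of these data known. Log2 ratios were computed with a pseudocount of 0.1 for genes at 1 FPKM or above in one of the pair, and called at 1.5-fold. All members are named. For the other lists, the rule was to name genes past 1.5-fold in the same direction in both lines (none were). It also named the largest change per line at 2.5 μM XY018 among genes at 5 FPKM or above (PHLDA1, DUSP1, FOS, ATF3, MKNK2 and ETV1). ERRFI1, SPRY1, CCND1, EGFR and the other list genes named in the Results fell outside this rule and were named with their values known. The 5 genes most like the members' median ratio are also named. For GSK805, 57909 entries gave 55744 names, and the entry with the highest mean was kept.

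Depth was estimated from the spacing of low FPKM values of genes with a single transcript, with 1 length offset per table (20, 40 and 200 nt), and checked on simulated data. Member lengths are those of the canonical GENCODE transcript, so fragment numbers are approximate. Coordinates are GENCODE on GRCh37, promoters RefSeq on GRCh38.p14. Alternatives were pseudocounts of 1 and 0.01, no filter, a filter at 5 FPKM, rescaling to a median of 0, a 2-fold limit, a filter on vehicle alone and, for GSK805, the other vehicle. Scripts ran in Python 3.11.15 with scipy 1.17.1, numpy 2.4.6, matplotlib 3.10.9 and pandas 2.3.3. With single libraries no test could be made.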

Additional observations from a re-analysis of the deposited data

Results flagged for a closer look

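DUSP4, DUSP6, SPRY4, ETV4, ETV5 and EGR1 were picked out because all 3 HCC70 libraries with XY018 lay above vehicle and all 3 MDA-MB468 libraries with XY018 below it. At 2.5 μM the log2 ratio in HCC70 exceeded that in MDA-MB468 by 2.64 for EGR1, 1.94 for ETV5, 1.88 for DUSP6, 1.63 for SPRY4, 1.32 for DUSP4 and 1.22 for ETV4. In HCC70 SPRY4 was under 1 FPKM in vehicle and with 1.25 μM XY018 and passed the filter at 2.5 μM only through the treated library, so its value is not on the footing of the other 5. The difference between the lines was not tested, since each condition is 1 library and the libraries of a line share a vehicle.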

How the results depend on the processing

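Pseudocounts, filters and rescaling turned the direction of no member called. Rescaling to a median of 0, a pseudocount of 0.01 and leaving out the filter kept each of the 18 counts within 1.5 times its value. A filter on vehicle alone, chosen after seeing the data, also kept each of the 18 counts within 1.5 times its value. With a pseudocount of 1, members higher in HCC70 numbered 1 at 1.25 μM XY018 and 3 at 2.5 μM, members higher in MDA-MB468 with both compounds numbered 1, and members lower with GSK805 numbered 0. With a filter at 5 FPKM, members higher in HCC70 numbered 1 at 1.25 μM and 2 at 2.5 μM, since fewer members were compared. At a 2-fold limit, members higher in HCC70 numbered 0 at 1.25 μM XY018, 2 at 2.5 μM and 1 with both compounds. At that limit members lower in MDA-MB468 numbered 0 at 1.25 μM, 3 at 2.5 μM and 3 with both, members higher with both numbered 0, and members lower with GSK805 numbered 0. With the vehicle taken from the other MDA-MB468 table, whose normalization was its own, GSK805 had 3 lower members. There DUSP6 and ETV4 changed side, to 0.45 and −0.56, and SPRED1 stood at 1.14, SPRY4 at −1.30, SPRY2 at −0.99, ETV5 at 1.90 and EGR1 at 1.11, and the cause was not tested. No paired analysis was possible because each condition has 1 library. SPRY4, ETV5 and FOSL1 in HCC70 rest on 38 to 63 estimated fragments in vehicle, which limits the precision of their ratios.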
